A study of Mus musculus with 12 samples.

Results

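The genes described here encode the proteins of the cytoplasmic ribosome, the particle that translates messenger RNA. They are the rows of the gene table whose symbol starts with Rpl or Rps and a digit, together with Rplp0, Rplp1, Rplp2 and Rpsa. Pseudogene symbols and the Rps6k kinases were left out. Of 84 matching symbols, 83 had a value above 0 in at least 100 cells and are the members, out of 20090 genes in the table. Rpl3l, with a value in 39 cells, was left out. By name, 46 members belong to the large subunit, 33 to the small subunit and 3 (Rplp0, Rplp1 and Rplp2) to the stalk of the large subunit. The remaining member, Rps19bp1, encodes a nucleolar protein that binds Rps19 and is not itself a ribosomal protein. Rps27l, Rps27rt, Rpl36al, Rpl22l1 and Rpl7l1 are near copies or paralogs of other members.

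Ribosomal proteins are built into each ribosome in near equal number, and their genes are among the most strongly transcribed of any cell. Their mRNAs commonly start with a run of pyrimidines, the TOP tract, through which the mTOR pathway and the RNA-binding protein Larp1 adjust their translation. In the small intestine, Lgr5-positive stem cells at the crypt base feed dividing progenitors, which become the absorptive enterocytes of the villus or secretory goblet, Paneth, enteroendocrine and tuft cells.

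The cells came from the 8 libraries of a diet series on the intestine of adult Lgr5DTR-GFP mice, in which the Lgr5 locus, active in intestinal stem cells, carries a diphtheria toxin receptor and GFP. Epithelium was sorted as CD45- and EpCAM+ and profiled with Chromium Single Cell 3' chemistry, and each intestine was cut into 30 pieces. All groups share the mouse line and age. No label says which diet a library stands for, and no diets were compared. The 4 other libraries of the series, labelled as total epithelium and progenitors, were not analysed here. The deposited table holds 27881 cells in 8 barcode sets that cannot be matched to the library titles. It therefore counts as 1 pooled sample: no test was possible, and the values of the barcode sets serve only as a measure of spread. What a barcode set holds in animals or diets is not known here.

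The deposited values are whole numbers that do not behave as raw molecule counts, with a median sum of 5503 and a median of 2219 detected genes per cell. After filtering, 27834 cells remained, and 78 barcodes occurred in more than 1 set. Levels are given in ppm of the summed values of all genes. A gene is called higher or lower where the mean of both cell classes was at least 10 ppm, the log2 difference was at least 0.5 in size and every barcode set with at least 20 cells of both classes had the same direction. Cells were clustered without the ribosomal genes, so that the classes do not rest on the members, and 14 of 20 clusters were named from marker genes. The 6 unnamed clusters held 7942 cells, 28.5% of those kept, and these cells are in none of the classes compared. The stem class expressed 14 of 14 stem markers above the other cells, and stem markers together stood at 10191 ppm there against 910 ppm in villus cells. Enterocyte markers stood at 67638 ppm in villus cells and at 1211 ppm in stem cells. The goblet class also carried 53847 ppm of enterocyte markers, and 836 of its 984 cells came from barcode set 4. The enteroendocrine class carried 18093 ppm of enterocyte markers beside 16019 ppm of its own. The tuft class carried 8192 ppm of Paneth, 6396 ppm of goblet and 5403 ppm of enterocyte markers beside 954 ppm of its own. Of 337 tuft cells, 314 came from set 7. No Paneth class could be named in this clustering.

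RefSeq promoter windows (GRCm38.p6) were found for 63 of the 83 members. A tract, meaning a C at the first transcribed base followed by at least 4 further C or T bases on the gene's own strand, began exactly at a listed start of 14 members. It began at 18.9% of the members' 74 listed starts, against 2.51% of all 32851 starts of the table. Among the elongation factors and other known TOP mRNAs 3 of 14 matched genes had such a tract, while 0 of 45 ribosome biogenesis genes and 0 of 69 mitochondrial ribosomal protein genes had it. The tract is searched at the annotated base only, so a start listed a few bases off is not counted. The windows below run from 10 bases before the listed start, with the tract in capitals. Rps6, Rps15a and Rpl38 are shown as members with a tract. Rps27 is set beside its near copies, Rpl36a beside Rpl36al, and Rps2 is the member with the largest difference between villus and crypt.
Rps6 (chr4:86857348-86857377, minus strand): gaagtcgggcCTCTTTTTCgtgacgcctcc
Rps15a (chr7:118116128-118116157, minus strand): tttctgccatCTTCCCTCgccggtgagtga
Rpl38 (chr11:114668570-114668599, plus strand): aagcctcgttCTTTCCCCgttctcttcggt
Rps27 (chr3:90213629-90213658, minus strand): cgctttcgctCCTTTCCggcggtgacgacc
Rps27rt (chr9:114982720-114982749, minus strand): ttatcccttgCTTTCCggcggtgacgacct
Rps27l (chr9:66946076-66946105, plus strand): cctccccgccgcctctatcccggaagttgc
Rpl36a (chrX:134585644-134585673, plus strand): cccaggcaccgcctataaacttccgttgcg
Rpl36al (chr12:69184048-69184077, minus strand): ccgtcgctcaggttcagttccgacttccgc
Rps2 (chr17:24720053-24720082, plus strand): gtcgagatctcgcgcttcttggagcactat
Rps27 and Rps27rt both show a tract, and Rps27l, Rpl36a, Rpl36al and Rps2 show none at these starts. The longest run that an annotated transcript of Rps27rt shares with one of Rps27 is 341 bases, nearly the whole 374-base Rps27rt transcript, so reads of the pair are hard to tell apart and Rps27rt values are uncertain. The longest shared run is 11 bases for Rps27 and Rps27l, 24 for Rpl36a and Rpl36al, 26 for Rpl22 and Rpl22l1, and 11 for Rpl7 and Rpl7l1. Members with and without a tract had similar differences between villus and crypt, with a median of -1.61 over 14 members with it and -1.51 over 49 without.

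Ribosomal protein genes took a large part of all summed values in crypt cells and far less in villus cells. They made up 20.3% of the sum in stem cells, with 18.4, 19.9 and 22.3% as the lowest, median and highest of the 8 barcode sets. In cycling cells they made up 18.2%, from 16.6% to 19.9% over the sets. Cells of the villus bottom, the youngest enterocytes, stood at 12.5% (11.9 to 14.6%). In villus cells the share was 6.57%, and the sets ranged from 4.83% over 6.87% as the median to 10.3%. The lowest stem and cycling sets were higher than every villus bottom set, and every villus bottom set was higher than every villus set. This order leaves out the unnamed clusters 0 and 9, for which stem was the best marker list. The members took 10.9% of the sum in cluster 0 and 8.20% in cluster 9. Between the lower and upper quartile, stem cells lay between 16.7 and 23.5%, and villus cells between 3.64 and 9.61%.

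**Figure D1:**
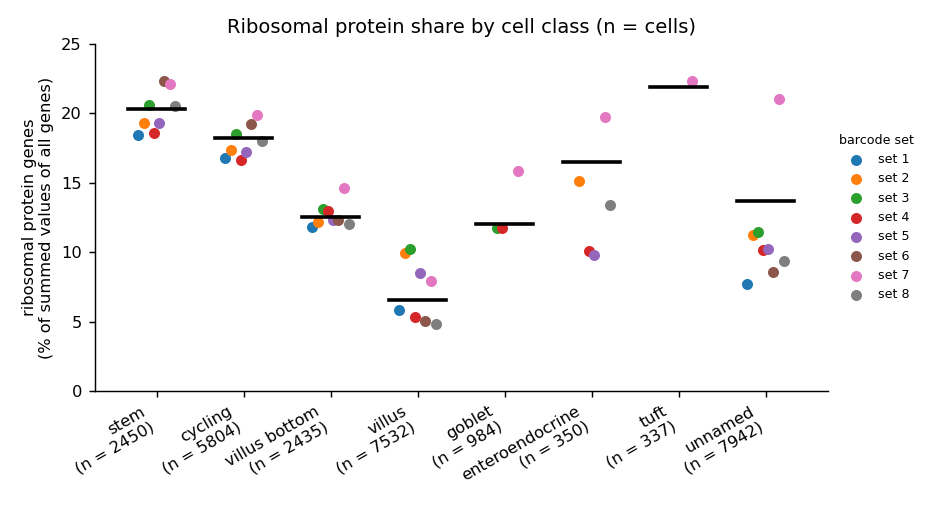
Share of the summed values of all genes taken by the 83 ribosomal protein genes (percent), by cell class. Points are barcode sets with at least 20 cells of the class, black bars the value over all cells of the class; stem sets lie between 18.4 and 22.3% and villus sets between 4.83 and 10.3%.

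The villus share varied more between barcode sets than the crypt share. Sets 1, 4, 6 and 8 had villus values of 5.84, 5.35, 5.08 and 4.83%, and sets 2, 3, 5 and 7 had 9.98, 10.3, 8.49 and 7.91%. The SD over sets was 2.23 percentage points in villus cells and 1.5 in stem cells. Villus clusters also differed: a cluster led by Slc7a15 and Slc5a12 stood at 8.35%, clusters led by Nt5e (an enzyme of the villus tip) and by Slc10a2 (the ileal bile acid transporter) at 6.82% each, a cluster led by G0s2 and Leap2 at 5.39%, and a cluster led by Plb1 and Enpp7 at 4.12%. Villus cells had a median of 1687 detected genes and crypt cells 2923.

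Villus against crypt, where crypt means stem and cycling cells together, asks how the group differs between absorptive cells and the cells they come from. All 83 members were called lower in villus cells, and 0 higher. Of the 9266 genes tested, 52.1% were called lower and 21.7% higher, and their median log2 difference was -0.60 against -1.53 for the members. The summed share was lower by 1.52 on the log2 scale, from -1.98 to -0.85 over the 8 sets, which is a 2.87-fold difference. Large subunit genes together differed by -1.47 and small subunit genes by -1.57. With cells matched on detected genes within each set the difference of the sum was -1.94, and with the median gene set to no difference it was -0.92, with 79 members still called lower. The share of all genes called under that scaling was not computed.

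Rps2, a core protein of the small subunit near the mRNA entry channel, had the largest difference. Its level was 2379 ppm in crypt and 583 ppm in villus cells, a log2 difference of -2.03 (-2.57 to -1.31 over 8 sets). Other members with large differences were Rps19bp1 (-1.86), Rpl12 (-1.84), a large subunit protein at the base of the stalk, Rps15a (-1.83), Rpl3 (-1.77) and Rpl14 (-1.75). Each of these was lower in every set. The stalk genes Rplp0, Rplp1 and Rplp2 lay between -1.66 and -1.57, inside the range of the other members.

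The smallest differences were those of Rps27l and Rpl36al. Rps27l, a paralog of Rps27 known as a target of p53, stood at 594 ppm in crypt and 391 ppm in villus cells (log2 -0.60, from -0.83 to -0.30 over sets). Rpl36al, an autosomal copy of the X-linked Rpl36a, stood at 751 and 390 ppm (-0.95). Rpl38, a large subunit protein with a known part in translating homeobox mRNAs, followed at -1.03, then Rpl7a (-1.15), Rpl28 (-1.18), Rpl24 (-1.23), Rps27 (-1.25) and Rps29 (-1.27). All 8 were lower in every set. The other near copies, Rps27rt (-1.69), Rpl22l1 (-1.60) and Rpl7l1 (-1.52), lay close to the median of the members. With the median gene set to no difference, Rps27l was at 0.00 (0.0007), so its direction there turned on the scaling.

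**Figure D2:**
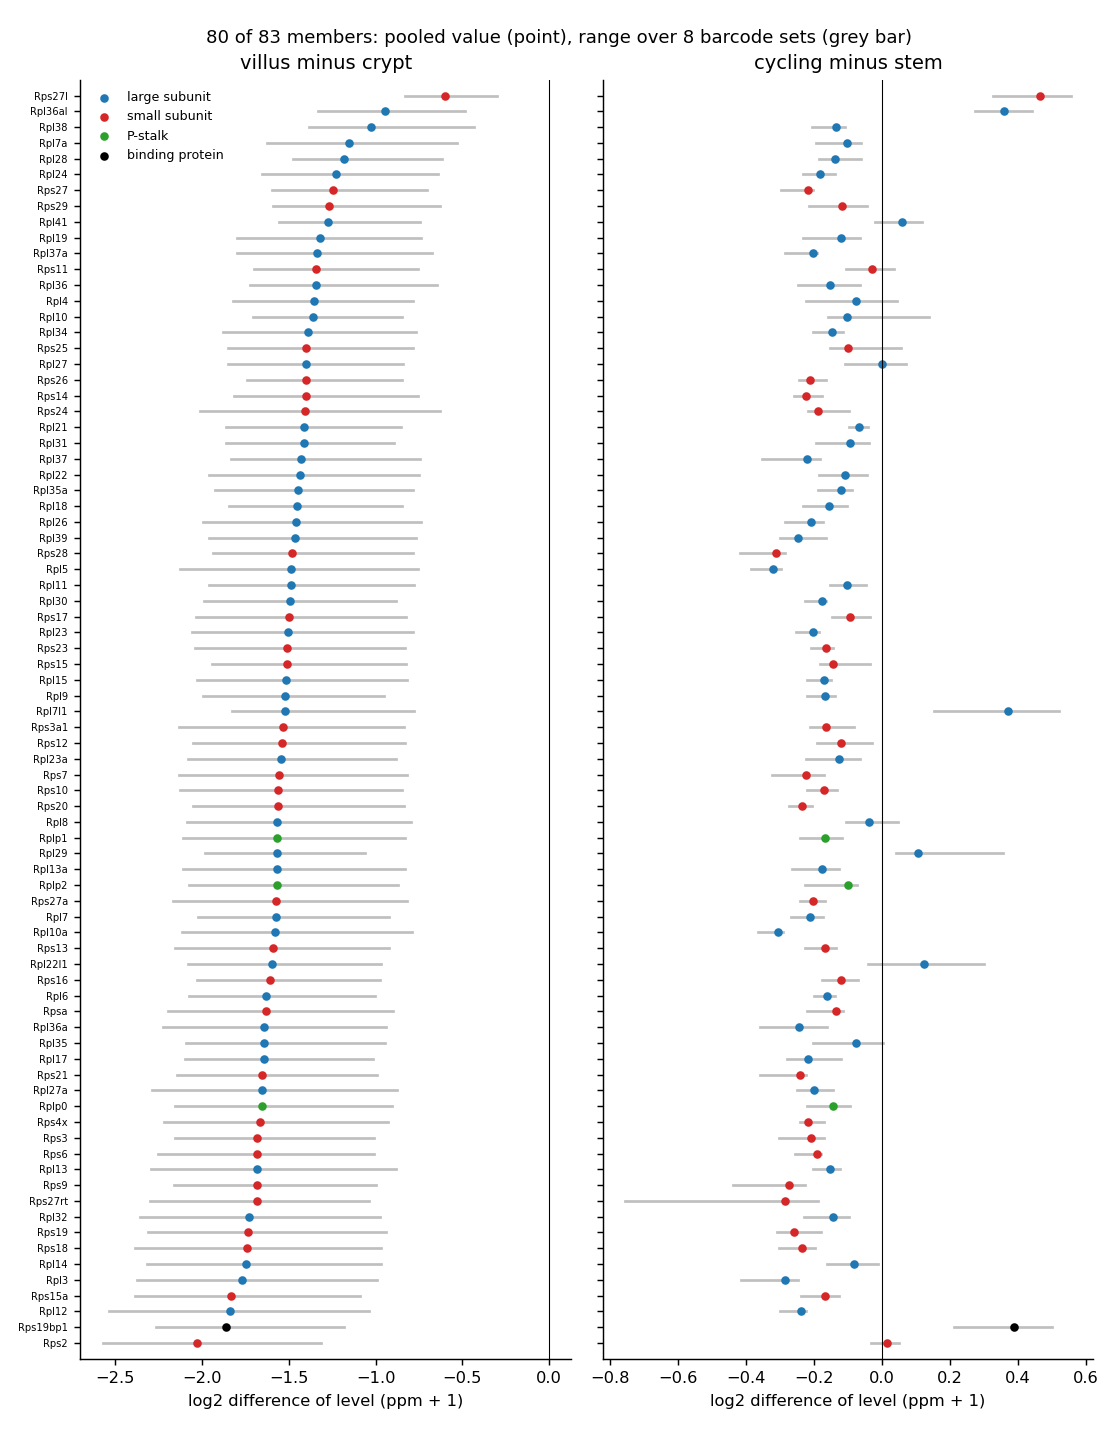
Log2 difference of the level (ppm plus 1) of 80 of the 83 members between villus and crypt cells (left) and between cycling and stem cells (right), ordered by the left panel. Points are pooled values coloured by subunit and grey bars the range over 8 barcode sets; Rps27l at -0.60 and Rpl36al at -0.95 stand above the others on the left, and also lie above 0 on the right.

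When each member was taken as a part of the ribosomal sum, so that the shared difference cancels, 3 members departed from the group between villus and crypt. Rps27l (0.92, from 0.49 to 1.31 over sets) and Rpl36al (0.58, from 0.27 to 0.88) were called higher, 2.41% of 83 members. Rps2 (-0.51, from -0.66 to -0.39) was called lower, 1.20% of members. The call of Rps2 was lost without set 3 (-0.498), set 4 (-0.499) or set 8 (-0.471), and among other settings with finer clusters at resolution 2 (-0.36). That of Rpl36al was lost with coarser clusters at resolution 0.5 (0.44). The other 80 members kept within 0.5 of the group or did not keep 1 direction in every set.

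Rps27l made up 0.230% of the ribosomal sum in stem cells, and the sets ranged from 0.219 to 0.268%. Its part was 0.355% in cycling cells (0.329 to 0.397%), 0.483% in villus bottom cells (0.442 to 0.533%) and 0.595% in villus cells (0.445 to 0.766%). The stem, cycling and villus bottom ranges did not overlap, while the villus range overlapped that of the villus bottom. Its partner Rps27 made up 1.07, 1.03, 1.17 and 1.27% in the same order, with overlapping ranges (0.836 to 1.30% in stem, 1.13 to 1.44% in villus cells). Within each set, however, the part of Rps27 was higher in villus than in stem cells. The ratio of Rps27l to Rps27 was thus 0.214 in stem, 0.344 in cycling, 0.415 in villus bottom and 0.471 in villus cells. In the villus clusters led by G0s2 and by Plb1, the part of Rps27l was higher than in crypt by 1.62 and 1.52 on the log2 scale.

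Rpl36al and Rpl36a encode nearly the same large subunit protein. Rpl36al made up 0.308% of the sum in stem cells (0.289 to 0.334% over sets), 0.441% in cycling cells (0.410 to 0.465%), 0.589% in villus bottom cells (0.539 to 0.621%) and 0.593% in villus cells (0.486 to 0.711%). Rpl36a made up 0.679, 0.640, 0.528 and 0.598%. The ratio of Rpl36al to Rpl36a was 0.453 in stem cells (0.411 to 0.542), 0.689 in cycling cells (0.642 to 0.770), 1.12 in villus bottom cells (0.936 to 1.35) and 0.992 in villus cells (0.748 to 1.31). Stem and cycling ranges did not overlap with each other. The cycling range lay below that of the villus bottom and overlapped that of the villus, although within each set the villus ratio was the higher. The ratio of Rpl22l1 to Rpl22 moved less, at 0.438 in stem, 0.514 in cycling and 0.438 in villus cells, with overlapping ranges. Within each set it was higher in cycling than in stem cells. Rpl7l1, at 59.1 ppm in stem cells, is low. Its ratio to Rpl7 was 0.0353 in stem (0.0285 to 0.0398) and 0.0531 in cycling cells (0.0427 to 0.0602), without overlap of these ranges. It was 0.0555 in villus bottom cells (0.0444 to 0.0702) and 0.0478 in villus cells (0.0323 to 0.0624).

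**Figure D3:**
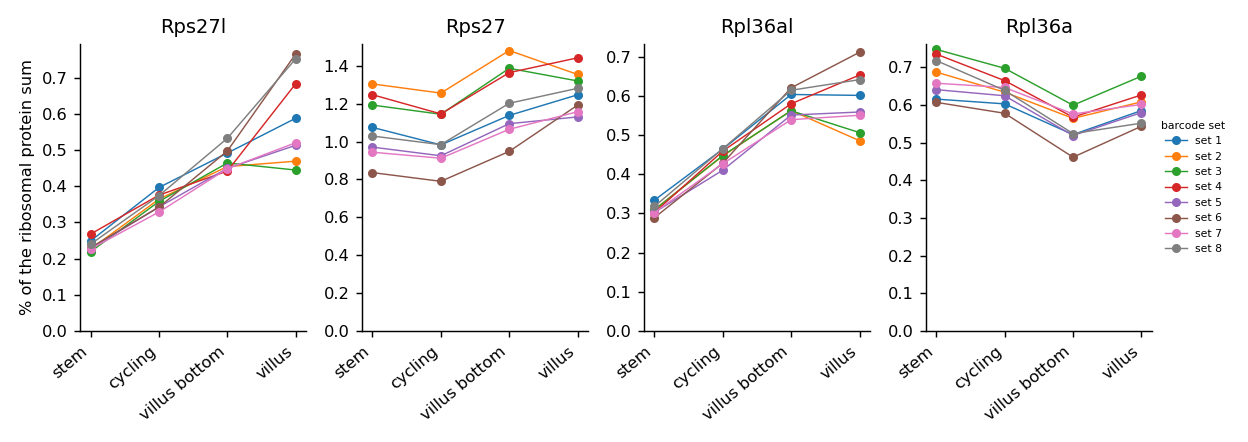
Part of the ribosomal protein sum (percent, axes from 0) taken by Rps27l, Rps27, Rpl36al and Rpl36a in stem, cycling, villus bottom and villus cells, each line a barcode set. Rps27l and Rpl36al are lowest in stem cells in all 8 sets, at 0.219 to 0.268% and 0.289 to 0.334%, while Rps27 is lowest in cycling cells and Rpl36a at the villus bottom in all 8 sets.

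The difference between crypt and villus was present in part at the villus bottom. Between villus bottom and crypt the sum differed by -0.59 (-0.70 to -0.42), and 60 members were called lower, against 34.8% of 9477 genes, with 0 members higher against 20.8%. Between villus and villus bottom it differed by -0.93 (-1.32 to -0.29), and all 83 were called lower, against 36.3% of 8293 genes (14.3% were called higher). These differences share cells with each other. Rpl12 (-0.93), Rpl36a (-0.89), Rpl3 (-0.85), Rps28 (-0.79), Rpsa (-0.79), Rps21 (-0.78), Rpl14 (-0.76) and Rps20 (-0.75) were lowest at the villus bottom. Rps27l (0.03), Rpl36al (-0.02) and Rpl10 (-0.18) differed least from crypt there. From the villus bottom to the villus, Rps19bp1 (-1.40), Rps2 (-1.39), Rps27rt (-1.34) and Rpl29 (-1.33) were among those that differed most.

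Along the villus itself the share showed no steady course over all villus cells, but was lower in the part nearest the tip once cells were matched on detected genes. Villus cells were divided into 5 equal parts by tip markers minus bottom markers within each set, and the parts held 6.53, 7.25, 6.79, 6.10 and 6.12% from bottom to tip. Such parts are stretches of a score, with no claim to be types of cell. The last part differed from the first by -0.09 on the log2 scale (-0.50 to 0.33), with 4 of 8 sets lower. Only Rps19bp1 (-1.37) and Rpl7l1 (-1.07) were called lower, against 28.2% of 7545 genes, and 0 members higher, against 11.3%. The first part had a median of 2179 detected genes and the last 1475. With cells matched on detected genes the difference was -0.43 (-0.74 to -0.24), lower in 8 of 8 sets, with 20 members called lower, against 11% of 7344 genes, and 0 higher, against 9.11%. Genes of the dissociation stress list stood at 569 ppm in the first part and 2235 ppm in the last, and their part in the result was not tested. By region, 3 equal parts (proximal, middle and distal) along a score of regional enterocyte genes held 5.94, 7.23 and 6.70%. A cluster of 845 cells led by S100g and Reg1 stayed unnamed and is in none of these parts. The members took 8.92% of its sum, so the parts do not cover every enterocyte-like cell. The distal part differed from the proximal by 0.17 (-0.43 to 0.91), higher in 5 of 8 sets, and 0 members were called in either direction, against 10.8% of 7723 genes higher and 19.3% lower. After matching the difference was -0.07, with 0 members called higher and 0 lower, against 4.8 and 4.31% of 7478 genes.

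Cycling cells differed little from stem cells in the sum, and the direction depended on how the stem class was drawn. The sum was lower by 0.16 in cycling cells (-0.22 to -0.13 over 8 sets), and 75 members lay below 0 and 8 above. At the size used here 0 members were called in either direction, against 11.4% of 9665 genes higher and 12.7% lower. The cycling clusters stood at 19.4% for the cluster led by S phase genes such as Cdc6 and Mcm3, at 17.6% for the histone cluster and at 17.6% for the cluster led by Cdc20 and Ccnb1. The lowest members were Rpl5 (-0.32), whose protein carries 5S RNA into the large subunit, Rps28 (-0.31), Rpl10a (-0.31), Rps27rt (-0.29), Rpl3 (-0.29), Rps9 (-0.27), Rps19 (-0.26) and Rpl39 (-0.25). With classes drawn from per-cell marker scores the difference of the sum was 0.09, and with the unnamed clusters 0 and 9 counted as stem it was 0.36. That last setting was chosen after seeing the data.

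The 4 members furthest above 0 in cycling cells were Rps27l, Rps19bp1, Rpl7l1 and Rpl36al. Rps27l stood at 468 ppm in stem and 647 ppm in cycling cells (0.47, from 0.33 to 0.56). Rps19bp1 stood at 56.0 and 73.6 ppm (0.39), Rpl7l1 at 59.1 and 76.7 ppm (0.37), and Rpl36al at 626 and 804 ppm (0.36). These 4 were higher in all 8 sets, without reaching the size of a call. Rpl22l1 (0.12), Rpl29 (0.11), Rpl41 (0.06) and Rps2 (0.01) completed the 8. As a part of the ribosomal sum, Rps27l (0.62), Rps19bp1 (0.55), Rpl7l1 (0.53) and Rpl36al (0.52) were called higher, 4.82% of members, and 0 were called lower.

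Secretory classes did not behave alike. Goblet cells held 12.01% of their sum in the members, enteroendocrine cells 16.5% and tuft cells 21.9%. Of the 3 barcode sets with enough goblet cells, the members took 11.8% in each of sets 3 and 4 and 15.8% in set 7. Enteroendocrine cells ranged from 9.83 to 19.7% over 5 sets, with 19.7% in set 7, which gave 214 of 350 cells. Tuft cells had enough cells in set 7 alone, at 22.3%, and stem cells of that set stood at 22.1%. Because cells of each secretory class came largely from 1 set, class and set can hardly be told apart in the pooled values. Cluster 1, with 2722 cells of which 2272 came from set 7, is not part of these classes. Its leading genes included Hbb-bs (a haemoglobin), Sst and Chgb (hormone cell genes), Agr2 and Spink4 (goblet cell genes) and Mmp7 (a Paneth cell gene), it stayed unnamed, and the members took 21.5% of its sum.

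Against crypt, the sum in goblet cells differed by -0.65 (-0.70 to -0.37 over 3 sets), and 64 members were called lower, against 49.7% of 9086 genes, with 0 higher against 13.2%. Rps2 (-1.19), Rpl3 (-1.12) and Rplp0 (-0.97) were among the lowest, and Rps27l was at 0.01. With the median gene set to no difference, the goblet difference of the sum was 0.04, with 0 members called lower, and at resolution 2 the count was 8. In enteroendocrine cells the sum differed by -0.19 (-0.87 to -0.06 over 5 sets), and Rps19bp1 (-1.07) and Rpl7l1 (-0.88) alone were called lower, against 21.9% of 9445 genes, with 0 higher against 7.56%. Without set 7 the enteroendocrine difference was -0.60, with 66 members called lower. Leaving out a set eases the rule on direction for every gene. The share of all genes called was not computed for these other settings, so such counts are no result about the members. In tuft cells the sum differed by 0.22 in the pool and by 0.12 within set 7, and 77 members lay above 0. Rps27rt (-1.39), Rps19bp1 (-0.84) and Rpl7l1 (-0.80) were called lower there, against 35.6% of 9157 genes, on the values of 1 set, with 0 higher against 4.34%. As parts of the ribosomal sum these 3 were also called lower, 3.61% of members. With mean values per cell that were not rescaled, the tuft difference of the sum was -0.10. Tuft cells had a median of 1642 detected genes and crypt cells 2923. The tuft difference was also no longer above 0 with cells matched on detected genes or with classes from per-cell scores. In the main setting, Rpl35 (0.43), Rps24 (0.42) and Rps26 (0.40) were among the highest members in tuft cells, below the size of a call.

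Pooled into a single class, secretory cells differed from crypt by -0.33 in the sum, with sets from -1.53 to 0.01. With the median gene set to no difference it was 0.21, with 0 members called lower. Called lower were 12 members, against 25.1% of 9243 genes, with 0 higher against 8.75%. Among them were Rps19bp1 (-1.21), Rpl7l1 (-0.96), Rps2 (-0.76), Rpl3 (-0.69), Rps3 (-0.57), Rplp0 (-0.55), Rpl7 (-0.54), Rps6, Rpl4 and Rpl14. Rps27rt was lower in the pool (-1.32) and in 7 of 8 sets. Leaving out set 7 gave -0.64 with 64 members called lower. Leaving out set 4 gave -0.05 with 2 members called lower. Against villus cells the sum of secretory cells was higher by 1.19 (0.03 to 1.41), and 48 members were called higher, against 13.6% of 8088 genes, with 0 lower against 12.9%. The count was 17 with the median gene set to no difference, 23 with coarser clusters at resolution 0.5 and 76 without set 1. It was 77 at resolution 2, where a class of 1480 Paneth cells was also counted as secretory. For counts under other settings, here and against crypt, the share of all genes called was not computed. Rpl35 (1.49), Rps15a (1.40), Rpl12 (1.39), Rpl27a (1.37) and Rpl32 (1.36) were among those that differed most, and of these Rpl35 and Rps15a had 1 set below 0. Rps27rt (0.37), Rpl7l1 (0.57), Rps27l (0.59) and Rps19bp1 (0.65) differed least. Both comparisons use the same secretory cells.

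Other genes of the translation machinery were taken from lists chosen with earlier results of these data known. Between villus and crypt, 52.1% of all 9266 genes tested were called lower and 21.7% higher, and the list counts below stand beside these shares. Of the tested ribosome biogenesis genes, 49 of 49 were called lower, with a median of -2.85. A gene can pass the filter on low levels through its crypt level alone, as Rrp1b (2.86 ppm in villus and 54.1 ppm in crypt), Wdr12 (3.64 and 65.1 ppm) and Utp20 (4.37 and 67.8 ppm) did, so the count and median only describe the genes that passed. These 3 factors of pre-rRNA processing were lowest (-3.83, -3.83 and -3.68), and Ubtf (-1.06), the RNA polymerase I factor, was highest. Of 20 elongation factors and other TOP mRNAs 19 were called lower, with a median of -1.39, and the exception was Eif4a2 (-0.20). Of 78 mitochondrial ribosomal protein genes, which build a separate ribosome, 74 were called lower (median -1.5). Of ribosomal proteins outside the rule, Rack1 (-1.67) was called lower and Fau, fused to a ubiquitin-like protein, was at -0.30. Of 14 translation control genes 10 were called lower, among them Myc (-3.35) and Larp1 (-1.63), and Max (2.27) and Eif2ak3 (1.40) were called higher. Myc, at 3.96 ppm in villus and 49.8 ppm in crypt cells, also passed the filter through its crypt level alone.

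With the main classes, the medians of the 2 kinds of ribosomal protein gene had opposite signs between cycling and stem cells. Of 78 mitochondrial ribosomal protein genes 35 were called higher in cycling cells and 0 lower, with a median of 0.47. Of all 9665 genes tested, 11.4% were called higher and 12.7% lower. The cytoplasmic members had a median of -0.16, and the direction of their sum depended on how the stem class was drawn. The mitochondrial list was not recomputed under other settings, so opposite directions are described for the main classes only. Mrpl51 stood at 80.3 ppm in stem and 199 ppm in cycling cells (1.30, from 1.10 to 1.45 over sets), and Mrpl18 (0.97) and Mrpl20 (0.92) followed. Biogenesis genes had a median of 0.09, with Nhp2 (0.62) as the single call. At the villus bottom, 46 of 49 biogenesis genes were called lower against crypt (median -1.55), and 8 of 78 mitochondrial ribosomal protein genes (median -0.17). Of all 9477 genes tested there, 34.8% were called lower. Here too a gene can pass the filter on low levels through its crypt level alone. Rrp1b did so, at 6.18 ppm in villus bottom and 54.1 ppm in crypt cells, so the biogenesis count only describes the genes that passed. In tuft cells 33 of 50 biogenesis genes were called lower (median -0.64), against 35.6% of 9157 genes, while the members had a median of 0.21. Only 1 set had enough tuft cells, so the rule on direction was met by every gene. Within that set the sum of the members differed by 0.12.

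**Figure D4:**
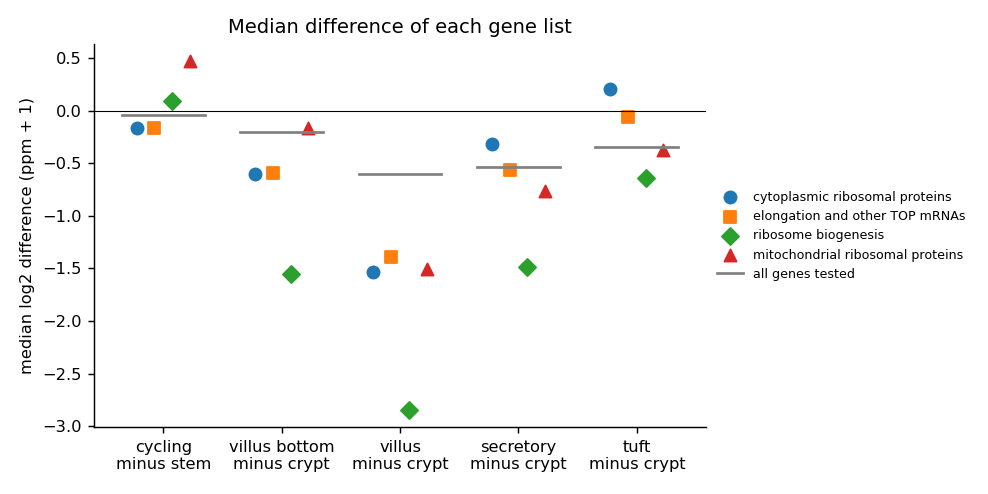
Median log2 difference of the level (ppm plus 1) of 4 gene lists in 5 comparisons, with the median of all genes tested as a grey bar. Biogenesis genes that passed the filter on low levels are at -2.85 between villus and crypt, and mitochondrial ribosomal protein genes stand at 0.47 between cycling and stem cells. The cytoplasmic members are at 0.21 in tuft cells, where 1 barcode set alone had at least 20 cells. The direction of their sum in tuft cells changed with the setting.

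Clusters 0 and 9, which stayed unnamed, differed from stem, cycling and villus cells in the make-up of their ribosomal sum. They and their members were singled out after the values were seen. Cluster 0 (2925 cells) had 10 of 14 stem markers above the other cells and cluster 9 (1273 cells) 8 of 14, but the median mitochondrial share was 13.6 and 14.5% there, against 6.44% in the stem class. The members took 10.9% of the sum in cluster 0 and 8.20% in cluster 9. Rps21, a small subunit protein, made up 1.35% of the ribosomal sum in stem cells (1.06 to 1.61% over sets), 1.28% in cycling cells and 1.19% in villus cells. It made up 3.50% in cluster 0 (3.14 to 4.80%) and 3.402% in cluster 9 (2.62 to 4.13%). The lowest sets of both clusters lay above the highest stem set.

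Other members were also higher in clusters 0 and 9 than in stem cells. Rps15, in the head of the small subunit, made up 1.27% in stem cells (1.18 to 1.34%) against 2.12% (1.97 to 2.74%) in cluster 0 and 2.17% in cluster 9. The stalk gene Rplp2 made up 1.39% in stem cells against 2.10 and 2.16%. Rpl30 made up 1.21% against 1.64 and 1.66%. Sets of both clusters did not overlap with stem sets for these 3 members either. Since Rps21 and these 3 were picked after the values were seen, that separation is no support for a trait of these members. Rpl36al and Rps27l also had no overlap of sets between either cluster and stem cells. How many of the 83 members separate in this way was not counted. Rps27l made up 0.311% in cluster 0 and 0.317% in cluster 9, between the stem and cycling values. Whether mitochondrial share or RNA quality has a part in these differences was not tested.

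**Figure D5:**
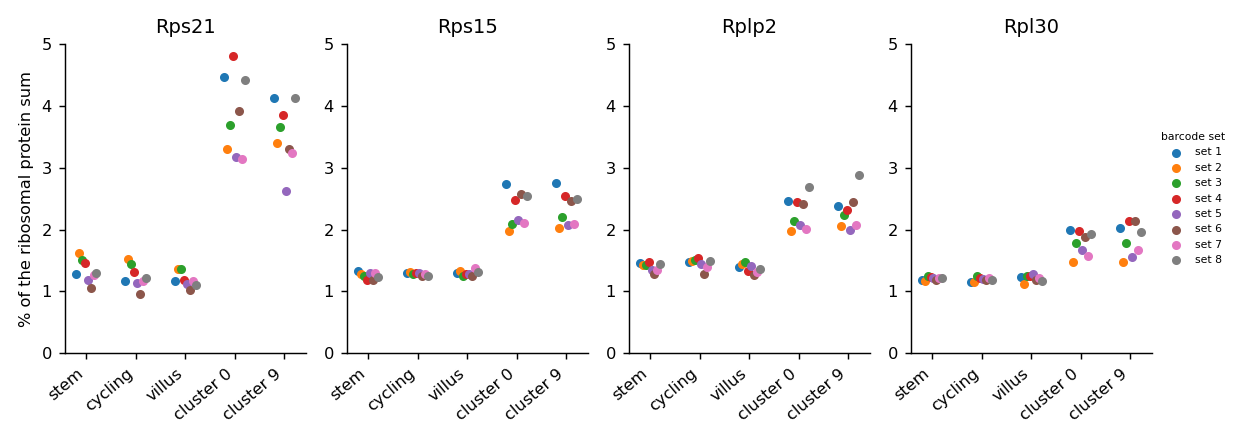
Part of the ribosomal protein sum (percent, axes from 0 to 5) taken by Rps21, Rps15, Rplp2 and Rpl30 in stem, cycling and villus cells and in the unnamed clusters 0 and 9. Points are the 8 barcode sets; Rps21 lies between 1.06 and 1.61% in stem cells and between 3.14 and 4.80% in cluster 0.

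Members differed widely in detection. The share of cells with a value above 0 was 99.6% for Rpl41, and its median over members was 97.3%. The exceptions were Rps27rt (16.4%), Rps19bp1 (19.3%) and Rpl7l1 (22.1%), each at 0.04% of the ribosomal sum or less. Rps12 (2.48%), Rpl41 (2.24%), Rplp1 (2.16%) and Rpl13 (2.15%) took some of the largest parts of the sum over all cells. These parts are not divided by transcript length and give no order of molecules. In stem cells Rps12 stood at 4966 ppm (4447 to 5438 over sets) and in villus cells at 1612 ppm (1192 to 2540), and Rplp1 at 4545 and 1415 ppm. The ranges of Rps12 did not overlap.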

How the data were processed

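The deposited diet table gives whole-number values for 20090 genes in 27881 cells. Cell Ranger and mm10 are named per the submitters' processing notes, while their versions, and the step behind these values, were not given in the sources used here. These values are treated as a score and not as counts: as deposited, cell totals spanned only 2764 to 9739 and small values were too often above 1 for raw molecules. The depth is therefore unknown, and no counting intervals are given.

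Requiring 500 detected genes and no more than 25% mitochondrial values removed 2 cells. Scrublet (expected rate 0.06) called 45 doublets, 0.161% of cells, too few for a working caller, so doublets may remain. Clusters were made with scanpy 1.11.5 and leidenalg 0.10.2 (resolution 1, 30 components, 2000 variable genes) without 87 ribosomal rows. Clusters took a list's name when 3 or more of its markers were 2-fold higher and the list's median led its rivals by 0.5 on the log2 scale, a rule set after the clusters were seen. Log2 differences used a pseudocount of 1 ppm. The table counts as 1 sample, so no test was run. In simulated villus and crypt data over 9562 genes, 98% of genes raised and 92% of genes lowered by 0.75 on the log2 scale were called, and 0% of 9362 unchanged genes. Both simulated classes had crypt proportions, with independent noise per gene and 50 genes for each change made. In the real comparison 52.1% of genes were called lower and 21.7% higher, and the SD of the member sum over sets was 0.45. The simulated rates therefore do not carry over to it.

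Named genes are, per comparison, up to 8 members with the highest and lowest differences, the 5 highest levels, near copies with their partners, and up to 3 at each end of other lists. Some genes that the rule names are not reported here. The unnamed clusters and their members lie outside that rule. Members and lists were chosen with earlier results of these data known. Alternatives covered scaling, pseudocount, filters, call size, clustering, matching on detected genes and leaving out each barcode set.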

Additional observations from a re-analysis of the deposited data

Results flagged for a closer look

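In 46 checks of values over barcode sets, 3 found a set standing far from the others, and chance alone flags about 1 in 20. Between cycling and stem cells, Rps27rt differed by -0.76 in set 4, which held 98 cycling and 59 stem cells, while the other sets lay between -0.44 and -0.19. Rps19bp1 was listed at 0 in the 25 secretory cells of set 6, which gave -6.09 against crypt and -3.83 against villus cells. These values depend on the pseudocount and are no measure of a fold. In the other sets Rps19bp1 lay between -1.43 and -0.19 against crypt and between 0.17 and 1.36 against villus cells.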

How the results depend on the processing

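Of the values recomputed for the main results, 406 stayed within the spread between barcode sets or within 1.5 times the count, and 93 moved further. A change of direction was counted only from a value of at least 0.5 in size, and there was 1. Sign changes of smaller sums, as for cycling against stem, secretory against crypt and tuft against crypt, are among those that moved. For the counts of members given below, the share of all genes called under each setting was not computed. The lower level in villus cells kept its direction for the sum in every setting run, and 79 to 83 members were called lower. With the median gene set to no difference, the sum differed by -0.92 between villus and crypt, -0.12 between cycling and stem, 0.21 between secretory and crypt, 0.04 (0.037) between goblet and crypt (the direction turned) and 0.56 between tuft and crypt. The counts were then 0 for secretory, 0 for goblet and 0 for enteroendocrine cells against crypt and 17 for secretory against villus, and Rps27l stood at 0.0007 between villus and crypt. Without rescaling, 77 members were lower in secretory and 52 in enteroendocrine cells, and goblet and tuft cells differed by -1.04 and -0.10. Without mitochondrial genes in the denominator, tuft cells differed by 0.21 (share 21.5%). Without the members and top genes there, cycling and stem differed by -0.19, goblet by -0.48 (37 members) and tuft by 0.36 (share 23.8%), and 4 members were lower in secretory cells. A filter of 100 ppm left 0 enteroendocrine calls. Calls at a log2 difference of 1 left 1 in secretory, 5 in goblet and 1 in enteroendocrine cells.

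A stricter cell filter gave 7 secretory calls against crypt and 82 against villus, and tuft 0.17 (share 22.3%). At resolution 0.5 these counts were 60 and 23, and no stem, enteroendocrine or tuft class formed. At resolution 2 a class of 1480 Paneth cells formed, and per-cell scores gave 1046 Paneth cells. Both were counted as secretory, so the secretory values of these 2 settings rest on other cells than the main ones. At resolution 2, Rps2 stood at -0.36 of the ribosomal sum, cycling against stem at -0.0019, secretory counts at 6 and 77, goblet at -0.34 (8 members) and tuft at 0.16, with shares of 18.4% in stem, 14.5% in goblet and 20.5% in tuft cells. With ribosomal genes kept in the clustering, Rps27l stood at 1.22 of the sum, cycling against stem at -0.091, secretory against villus at 77 members and the tuft share at 22.04%. Classes from per-cell scores, with 18.4% of cells near a boundary, gave -1.99 for villus against crypt, 1.42 for Rps27l, 0.86 for Rpl36al, 0.087 for cycling against stem, 4 secretory calls against crypt, 1.79 and 79 members against villus, goblet -0.38 (16 members), tuft -0.13, and shares of 16.6% in stem and 15.8% in tuft cells. Matching on detected genes gave 1.40 (1.402) for Rps27l, 0.88 for Rpl36al, 9 enteroendocrine calls, tuft -0.0005, and -0.43 with 20 members along the villus. Equal weight of sets gave 36 secretory and 41 enteroendocrine calls and tuft 0.12 (share 22.3%).

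Among settings chosen after seeing the data, counting clusters 0 and 9 as stem gave 0.36 for cycling against stem, 1 secretory call, goblet -0.43 (29 members), 1 enteroendocrine call, tuft 0.44 and a stem share of 14.2%. Leaving out sets 4 and 7 together gave 69 secretory calls and enteroendocrine -0.54 (61 members). Leaving out each set in turn gave -1.65 to -1.43 (83 to 83 members) for villus against crypt, 0.83 to 1.01 for Rps27l, 0.51 to 0.63 for Rpl36al, -0.53 to -0.47 for Rps2 and -0.16 to -0.15 (0 members) for cycling against stem. It gave -0.64 to -0.05 (2 to 64) for secretory against crypt, 0.86 to 1.45 (48 to 76) against villus, -0.67 to -0.53 (47 to 68) for goblet, -0.60 to -0.14 (2 to 66) for enteroendocrine and 0.20 to 0.22 for tuft cells. Shares ranged from 19.9 to 20.6% in stem, 17.8 to 18.5% in cycling, 6.01 to 6.99% in villus, 11.7 to 13.04% in goblet, 12.1 to 17.1% in enteroendocrine and 21.9 to 22.04% in tuft cells. The cause of these shifts was not tested. No paired analysis was possible because the table pools the libraries with no map from cells to samples and no test was run.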
